A study of Mus musculus with 2 samples.

Results

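Loops of chromatin were described at 45 mouse genes of blood vessel growth and of the response to low oxygen, out of 21631 protein-coding genes on the chromosomes with loops. The genes were chosen for their known roles: VEGF ligands and receptors, angiopoietins and Tie receptors, PDGF, Notch genes, endothelial surface genes, endothelial transcription factors, the hypoxia-inducible factor (HIF) pathway and its targets. A loop was assigned to a gene when an end of the gene lay inside a loop anchor, 10 kb wide, or within 5 kb of it. By this rule 85 of the 26240 loops listed for diestrus and 78 of the 24131 listed for estrus belonged to the 45 genes, and no loop belonged to more than 1 of them.

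The lists came from Hi-C, which ligates and sequences neighbouring stretches of nuclear DNA as pairs, on whole uterus from CD-1 mice, an outbred stock. The mice were unexposed controls aged 2 months. A single library (n = 1) was made in diestrus, the progesterone stage of the cycle, and a single library (n = 1) in estrus, the stage after estrogen has peaked. The comparison asks how looping differs between the stages. Whole uterus mixes endometrium, muscle and vessels, so a loop can come from any cell type in it. No RNA was measured in these libraries, so neither the expression of the genes nor the tissue's markers could be checked. The number of animals behind each library is not stated in the labels. With 1 library per stage no difference has a replicate check and no test was made. Every interval is at 95% and covers counting error only.

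Vessels grow when VEGF ligands bind tyrosine kinase receptors and their neuropilin co-receptors on endothelial cells, and Notch ligands and receptors then set which cells lead a sprout. HIF transcription factors are kept low by prolyl hydroxylases and the VHL ubiquitin ligase while oxygen is present, and switch on VEGF and metabolic genes when it falls. The vessels of the endometrium change with the cycle, which makes both groups of genes familiar in the uterus.

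Most loops of these genes were present in both stages, and the members with many loops were few. Of the 45 genes, 36 (80.0%) had a loop in either list, against 55.7% of all protein-coding genes, and 33 (73.3%) had one in diestrus and 32 (71.1%) in estrus, against 50.8% and 49.4%. Loops in both lists were seen at 29. The co-receptor genes Nrp1 and Nrp2 and the Notch ligand gene Jag1 together held 32 of the 85 diestrus loops and 27 of the 78 estrus loops. The 9 genes without a loop in either list were the receptor genes Tie1 and Pdgfrb, the secreted Angptl4, the Notch ligand Jag2, the lymphatic hyaluronan receptor Lyve1, the secreted Egfl7, the mitochondrial Bnip3, the glucose transporter Slc2a1 and the carbonic anhydrase Car9. A gene without a listed loop had no called loop, which does not show that contacts were absent.

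**Figure D1:**
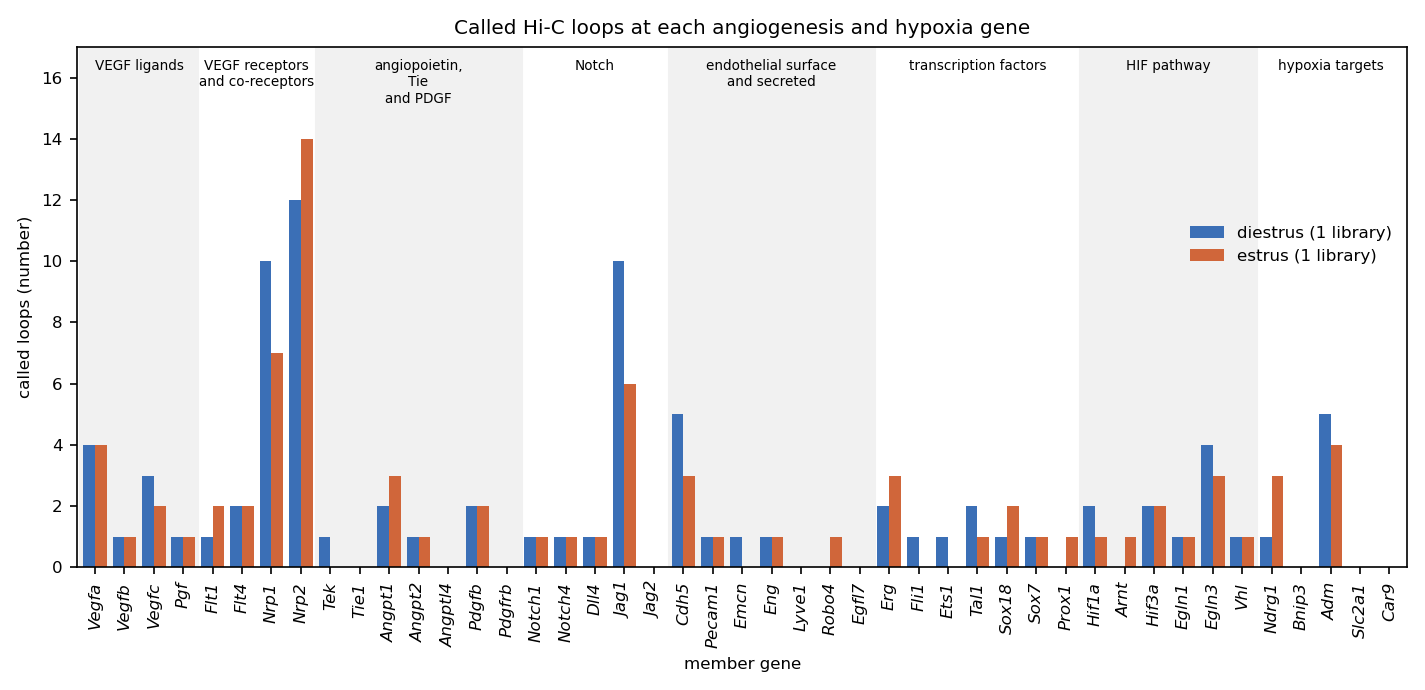
Number of called loops (vertical axis) at each of the 45 member genes (horizontal axis, shaded by role), with blue bars for the diestrus library and orange bars for the estrus library. Nrp2 reaches 12 and 14 loops, Nrp1 10 and 7 and Jag1 10 and 6, while 9 genes have no bar.

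Counted gene by gene, neither stage stood out. More loops were listed in diestrus at 12 of the 36 members with loops (33.3%), more in estrus at 9 (25.0%) and equal numbers at 15 (41.7%). Among the 12047 protein-coding genes with a loop in either list, the same shares were 31.5%, 25.6% and 42.9%. A difference of at least 2 loops was seen at 3 members with more in diestrus (Jag1, Nrp1 and Cdh5), where the background was 7.11%, and at 2 with more in estrus (Nrp2 and Ndrg1), where it was 4.29%. The diestrus list is the longer list. When it was shortened to its strongest loops, to the length of the estrus list, the members had 74 diestrus against 78 estrus loops, and the order turned, with 8 members higher in diestrus and 12 in estrus.

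The promoters of 5 genes with many loops are shown because their start sites lay in or within 5 kb of the anchors described below: Nrp2 and Jag1, which had some of the highest loop numbers, Vegfa, the main VEGF ligand gene, Egln3, a HIF prolyl hydroxylase gene, and Adm, a hypoxia target. Each is the 250 bases before the start of the gene, 5′ to 3′ on the gene's strand, from RefSeq on assembly GRCm38.p6, which is mm10. Capitals mark the hypoxia response cores ACGTG and GCGTG, read on either strand, so that their reverse complements CACGT and CACGC are also in capitals. Nrp2 lies at chr1:62703067-62703316 on the plus strand, Jag1 at chr2:137116521-137116770 on the minus strand, Vegfa at chr17:46032378-46032627 on the minus strand, Egln3 at chr12:54203875-54204124 on the minus strand and Adm at chr7:110627407-110627656 on the plus strand, where it overlaps the predicted gene Gm28863.
Nrp2: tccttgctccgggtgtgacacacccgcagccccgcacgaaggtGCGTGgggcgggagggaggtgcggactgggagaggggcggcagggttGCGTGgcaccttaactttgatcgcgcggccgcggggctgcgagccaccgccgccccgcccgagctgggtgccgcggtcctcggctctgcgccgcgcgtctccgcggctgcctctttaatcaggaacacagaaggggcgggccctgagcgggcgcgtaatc
Jag1: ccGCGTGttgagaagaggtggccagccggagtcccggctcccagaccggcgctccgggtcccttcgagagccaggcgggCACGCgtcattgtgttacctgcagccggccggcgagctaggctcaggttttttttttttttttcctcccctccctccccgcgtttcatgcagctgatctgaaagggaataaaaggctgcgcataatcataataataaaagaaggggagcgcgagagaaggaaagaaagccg
Vegfa: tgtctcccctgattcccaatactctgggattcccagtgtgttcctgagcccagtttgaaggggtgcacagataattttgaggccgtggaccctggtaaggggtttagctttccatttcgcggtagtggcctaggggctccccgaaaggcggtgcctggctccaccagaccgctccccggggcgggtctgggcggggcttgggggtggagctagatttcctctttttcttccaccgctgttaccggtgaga
Egln3: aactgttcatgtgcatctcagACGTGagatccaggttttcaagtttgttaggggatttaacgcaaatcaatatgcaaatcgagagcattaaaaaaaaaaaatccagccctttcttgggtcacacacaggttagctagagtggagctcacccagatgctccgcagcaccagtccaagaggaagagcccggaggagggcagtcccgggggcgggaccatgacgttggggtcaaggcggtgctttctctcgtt
Adm: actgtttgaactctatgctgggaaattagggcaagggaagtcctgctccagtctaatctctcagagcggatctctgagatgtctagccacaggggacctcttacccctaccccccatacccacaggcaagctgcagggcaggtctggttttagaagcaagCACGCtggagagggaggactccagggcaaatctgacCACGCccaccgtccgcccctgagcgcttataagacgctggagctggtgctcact

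The window shown for Nrp2 held 2 cores, those of Jag1 and Adm 2 each, that of Egln3 1 and that of Vegfa 0. Some genes have several start sites in the table, and over members and all genes alike a gene was counted when any of its windows held a core. Vegfa was so counted through another start site, at position 46025163, whose window held 1 core of each form. By this count a core of either form was found at 21 of the 32 members with a promoter entry (65.6%), against 47.6% of 17274 protein-coding genes. The form GCGTG was in 18 of the 32, against 37.1%, and ACGTG was in 7 of the 32, against 20.2%. The median GC content of the windows was 62.2% in members and 55.6% in protein-coding genes, and its part in the share of GC-rich cores was not tested. The ETS site CCGGAAG, which endothelial ETS factors can bind, was found at 0 of the 32 members, against 10.3%, and the composite FOX and ETS core ACAGGAA at 4, against 7.74%. The estrogen response element, searched as an inverted repeat of GGTCA with 3 bases between, was in 0 of the 32 and in 0.0579% of all. A match is a string of letters and no match says only that the letters are not in this window.

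The receptors and co-receptors of VEGF had the most loops of any role, 25 in either list, and all but a few were loops of the neuropilins. Neuropilin-2, encoded by Nrp2, binds VEGF-C and class 3 semaphorins and serves veins, lymphatic vessels and axon guidance. The lists gave Nrp2 12 loops in diestrus against 14 in estrus, and as many or more were seen at 0.116% and 0.0324% of protein-coding genes. All of them had the start of the gene in the anchor or within 5 kb of it (gene at chr1:62703317-62818692).

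From the anchor at chr1:62700001-62710000, 9 upstream loops of 500 to 1650 kb and 2 downstream loops of 230 and 260 kb were listed at the same bins in both stages. The upstream loops reached into and beyond Pard3b, a neighbouring cell polarity gene (chr1:61638667-62642284). Of the diestrus loops 5 ended in its body and 5 beyond it, and of the estrus loops 7 and 5. The longest, of 1650 kb, held 84 contacts in diestrus and 55 in estrus. The single loop that met an end of Pard3b, of 1070 kb, held 50 contacts in diestrus (37.1 to 65.9) and 51 in estrus (38.0 to 67.1).

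Strength, the number of observed contacts over the number expected from the donut-shaped surroundings, was highest at Nrp2 for the loops of 780 and 1330 kb. The 780 kb loop, which ends at chr1:61920001-61930000 inside Pard3b, held 196 contacts in diestrus (170 to 225) and 206 in estrus (179 to 236), at strengths of 4.89 and 6.26. Its log2 strength ratio (estrus over diestrus, centred on the median over all pairs) was 0.34 (0.05 to 0.63). The 1330 kb loop held 175 contacts in diestrus and 148 in estrus, at strengths of 4.93 and 4.90 and a log2 ratio of -0.02. The 11 paired Nrp2 loops thus included both a higher value in estrus beyond counting error and loops with nearly the same strength.

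The Nrp2 loops that were listed in a single stage all lay within 300 kb upstream and ended at the neighbouring bin, chr1:62690001-62700000. In diestrus this was 1 loop of 300 kb with 76 contacts and a strength of 2.96. In estrus there were 3, of 270, 230 and 120 kb, with 147, 118 and 164 contacts and strengths of 3.01, 2.95 and 2.44. The far anchors of the diestrus loop and the estrus loop of 270 kb started 30 kb apart, past the match rule of 10 kb between nearest edges. In the lists as given, the excess of 2 loops in estrus came from these short loops, and it varied with the settings. With the gene end required inside the anchor Nrp2 had 11 loops in either list, and when an anchor on any part of the gene was counted, 15 in diestrus and 14 in estrus. With q-values held to a 10 times stricter limit the difference grew, with 9 loops in diestrus and 14 in estrus.

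Neuropilin-1, encoded by Nrp1, binds VEGF-A and semaphorin 3A. The lists gave Nrp1 (chr8:128358591-128505476) 10 loops in diestrus against 7 in estrus, and as many or more were seen at 0.277% and 1.10% of protein-coding genes. These numbers rest on the 5 kb margin, since the gene starts just outside the anchor of most of its loops: with the gene end required inside the anchor Nrp1 had 2 and 0 loops. Its layout was like that of Nrp2: from chr8:128360001-128370000, 5 upstream loops of 530 to 1170 kb were found in both lists, and 4 of them ended in the body of Pard3 (chr8:127063381-127612286), the paralogue of Pard3b. A loop of 130 kb within the gene held 324 and 327 contacts, and a loop of 190 kb from the far end of the gene into the body of the integrin gene Itgb1 held 57 and 61.

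The strengths of the long Nrp1 loops moved in both directions. The 1170 kb loop held 144 contacts in diestrus (121 to 170) and 172 in estrus (147 to 200), with strengths of 4.80 and 6.70 and a log2 ratio of 0.46 (0.14 to 0.79). The 530 kb loop, which ends between both genes, held 220 contacts in diestrus (192 to 251) and 149 in estrus (126 to 175), with strengths of 3.42 and 2.72 and a log2 ratio of -0.35 (-0.66 to -0.04). Both stayed below the 1.5-fold mark used for all pairs.

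The 3 Nrp1 loops that only the diestrus list held were the shortest upstream ones, of 340, 240 and 150 kb, and all lay between Pard3 and Nrp1. They held 146, 137 and 182 contacts at strengths of 2.25, 2.34 and 2.42, below the median of 2.80 over member loops in diestrus. The nearest estrus loop was 160 to 250 kb away from each. At both neuropilin genes, then, every shared upstream loop was at least 500 kb long and every single-stage upstream loop was at most 340 kb long.

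**Figure D2:**
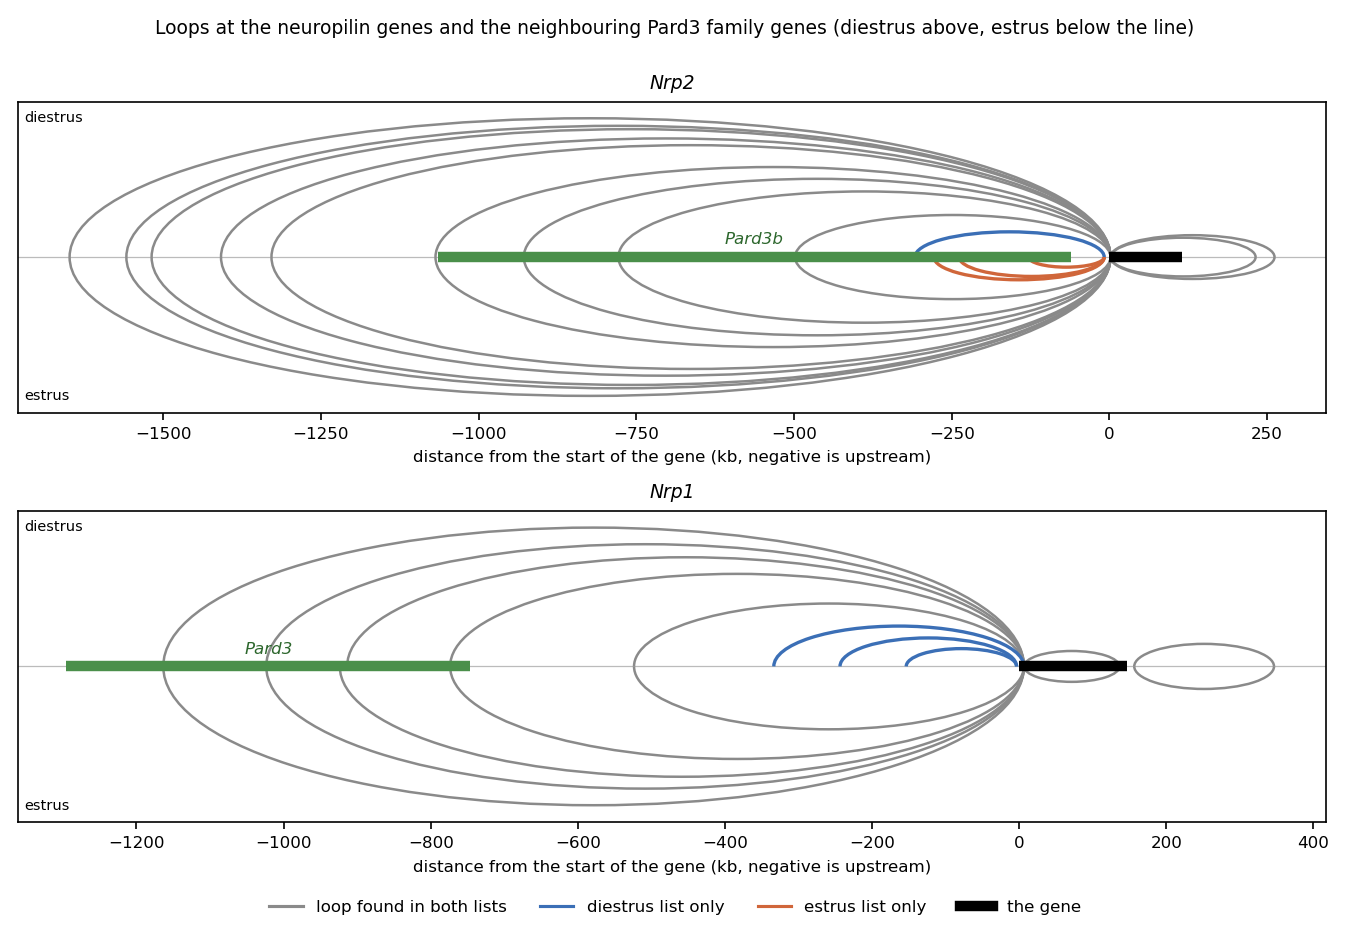
Loops at Nrp2 (upper panel) and Nrp1 (lower panel) as arcs joining their 2 anchors, by distance from the start of the gene in kb (horizontal axis, negative is upstream), with diestrus above and estrus below the line. Arc height has no unit. Grey arcs were found in both lists, and the blue and orange arcs of a single list are the short ones of 120 to 340 kb next to the gene. Pard3b and Pard3 are drawn in green.

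The receptor tyrosine kinase genes had fewer loops. Flt1, the VEGF receptor that binds VEGF-A and placental growth factor, had 1 loop in diestrus and 2 in estrus. Its shared loop of 120 kb held 204 and 267 contacts, at strengths of 2.86 and 3.27. Flt4, the VEGF-C receptor of lymphatic vessels, had 2 loops in each list. The shorter, of 210 kb, ran from the far end of the gene into the body of the kinase gene Mapk9 and held 192 and 206 contacts, at strengths of 5.25 and 5.93.

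The other Flt4 loop was unlike every other member loop. It joined chr11:49610001-49620000, next to the start of the gene, to chr11:52160001-52170000, 2550 kb away, with 40 contacts in diestrus (28.6 to 54.5) and 23 in estrus (14.6 to 34.5). Its donut expectation was 0.120 contacts in diestrus and 0.133 in estrus, which makes strengths of 333 and 173 and a log2 ratio of -0.96 (-1.77 to -0.18). The median donut expectation of the 308 loops of 2 to 3 Mb in each list was 7.31 and 6.97 contacts, and 12 and 8 of them had an expectation below 1. The median number of contacts at that length was 37 in both lists, so the Flt4 loop was near it in diestrus and below it in estrus. The strength is given as listed, and why the expectation was small was not tested.

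Of the VEGF ligand genes, Vegfa had 4 loops in each list, a number reached by 9.04% and 8.63% of protein-coding genes. Vegfa encodes the main signal for sprouting. Its 300 kb loop, downstream to an anchor with the uncharacterised gene 1600014C23Rik, was the strongest member loop after that of Flt4, with 657 contacts in diestrus (608 to 709) and 573 in estrus (527 to 622) at strengths of 9.52 and 9.04. A loop of 100 kb upstream, to the ends of Mrps18a and Rsph9, held 293 and 230 contacts at strengths of 3.43 and 3.20.

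Another loop at Vegfa had a higher listed strength in estrus. That loop, of 180 kb in diestrus and 190 kb in estrus, held 194 contacts (168 to 223) and 169 (144 to 196), and its strength was 2.51 in diestrus and 3.22 in estrus, a log2 ratio of 0.34 (0.04 to 0.65). The contacts themselves were fewer in estrus, and the donut expectation was 77.2 contacts in diestrus and 52.4 in estrus. The far anchors were neighbouring bins, so a difference between the stages cannot be told apart from this shift in position. The remaining Vegfa loops were of a single list, with 158 contacts over 140 kb in diestrus and 152 over 70 kb in estrus.

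The other ligand genes changed little. Vegfc, the lymphatic ligand, had 3 diestrus loops and 2 estrus loops, and the unmatched one, of 470 kb, held 48 contacts at a strength of 2.32. Its shared loops of 200 kb (117 and 90 contacts) and about 410 kb (130 and 90 contacts) had log2 ratios of -0.22 and -0.03. Vegfb had 1 loop in each list, to an anchor with ends of Esrra, Kcnk4 and Catsperz, with 336 and 295 contacts. That loop left from the far end of Vegfb, at an anchor shared with ends of other genes, among them Fkbp2, Plcb3 and Ppp1r14b. Pgf, the placental growth factor gene, had 1 loop in each list, to Acyp1, with 349 and 301 contacts. No interval of these Vegfb, Vegfc and Pgf ratios excluded 0.

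Jag1, a Notch ligand of endothelial and epithelial cells, had 10 loops in diestrus and 6 in estrus. In the lists as given this was the largest difference in loop number of all members. The gene lies at chr2:137081451-137116520 on the minus strand. As many loops or more were seen at 0.277% of protein-coding genes in diestrus and 2.23% in estrus. The 5 shared loops ran from its start in both directions, and the strongest, of 620 kb upstream, held 331 contacts in diestrus (296 to 369) and 303 in estrus (270 to 339) at strengths of 5.35 and 5.36. The 830 kb loop held 121 and 110 contacts at strengths of 5.33 and 5.88.

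Of the 6 Jag1 loops listed in a single stage, the strengths lay between 1.99 and 3.80, and those of the shared loops between 2.13 and 5.88. The diestrus list alone held 5, of 630, 230, 190, 120 and 120 kb, with 48, 85, 138, 98 and 144 contacts. Their strengths were 3.80, 2.28, 2.23, 2.04 and 1.99. The estrus list alone held 1, of 320 kb, with 118 contacts at a strength of 2.29. The diestrus loop of 120 kb with 144 contacts left from the far end of Jag1, where an end of Slx4ip also lay. Its other anchor was in the body of Slx4ip. In the shortened diestrus list Jag1 had 7 loops against 6. With the gene end required inside the anchor it had 8 against 6, as when an anchor on any part of the gene was counted.

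The other Notch genes had 1 loop each in both lists, apart from Jag2 with none. The receptor gene Notch1 had a loop of 50 kb with 343 and 345 contacts, at strengths of 1.88 and 1.89. Notch4, the endothelial Notch receptor, had a loop of 120 kb with 159 and 185 contacts, at strengths of 3.28 and 3.97. Dll4, the ligand of tip cells, had a loop of 80 kb with 282 and 296 contacts. The log2 ratios were 0.00, 0.26 and -0.12, and each interval included 0.

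**Figure D3:**
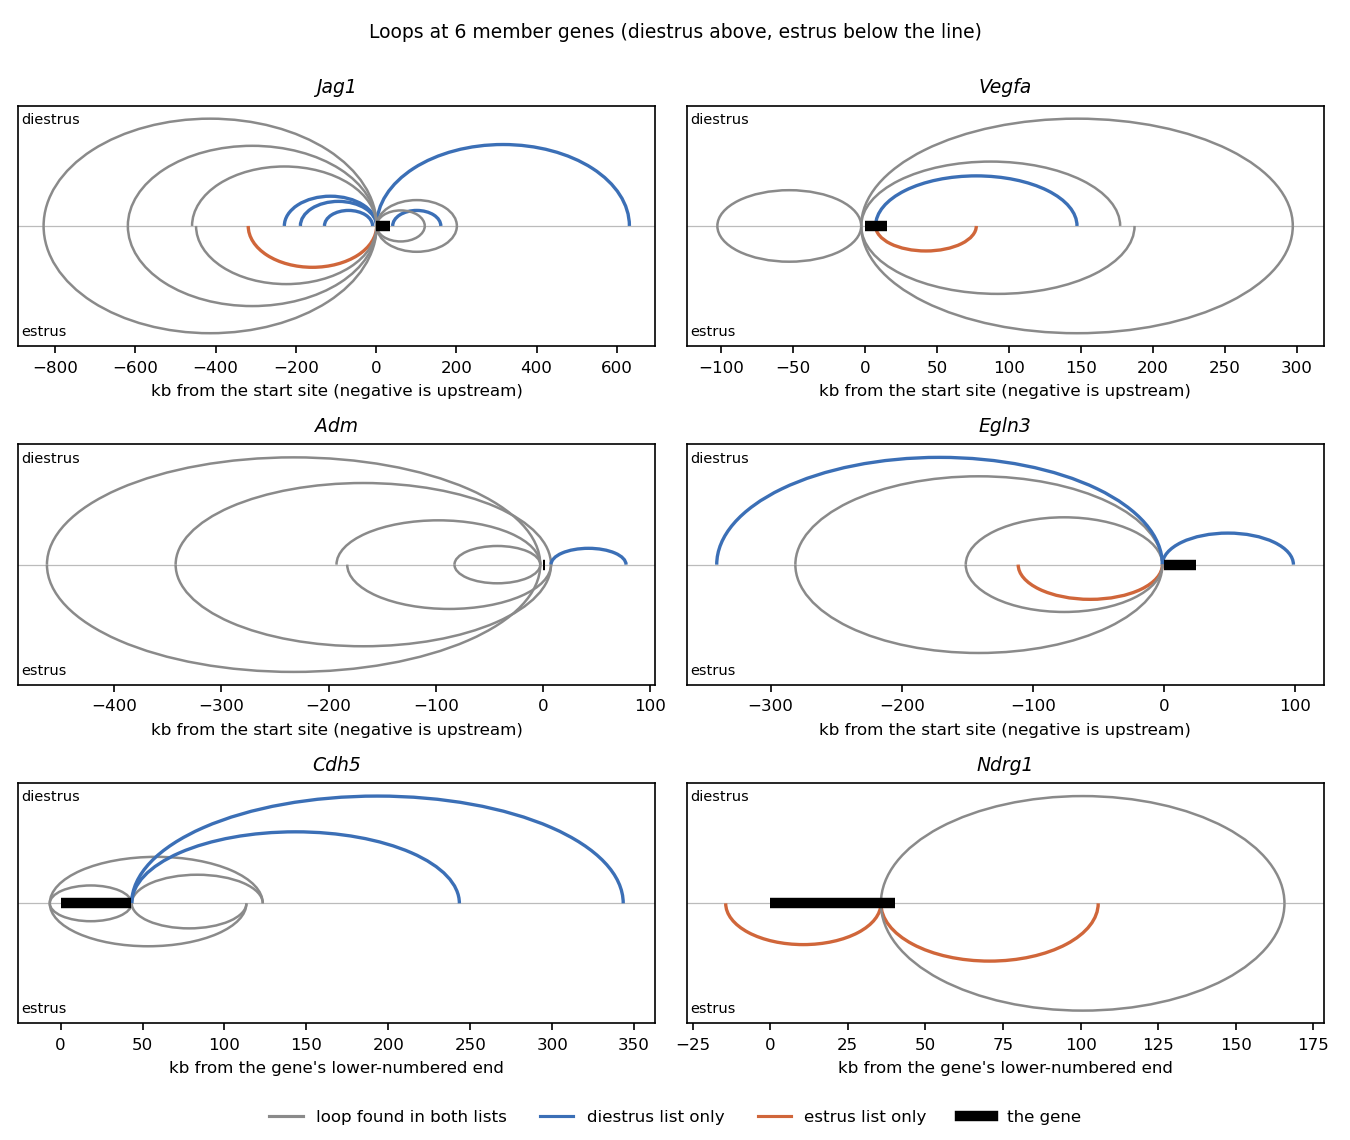
Loops at Jag1, Vegfa, Adm, Egln3, Cdh5 and Ndrg1 as arcs joining their 2 anchors, by distance in kb (horizontal axis) from the start site or, for Cdh5 and Ndrg1, from the gene's lower-numbered end. Diestrus is above and estrus below the line, and arc height has no unit. Jag1 has 5 blue arcs of the diestrus list only and 1 orange arc of the estrus list only, while Ndrg1 has 2 orange arcs.

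Among the angiopoietin, Tie and PDGF genes loop numbers were low. Tek, the angiopoietin receptor, had 1 loop in diestrus (90 kb, 232 contacts) and 0 in estrus. Angpt1, its activating ligand, had 2 and 3 loops. The 370 kb loop of Angpt1 was shared (112 and 94 contacts), and each of its 3 single-list loops had a loop of the other list 30 kb away. Angpt2, the context-dependent antagonist, had 1 loop of 130 kb in each list with 178 and 194 contacts. Pdgfb, which recruits pericytes, had 2 loops in each list, of 50 to 60 kb, with 190 and 214 contacts in diestrus and 215 and 213 in estrus.

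Loops between endothelial surface genes and neighbouring genes were among the best counted. Pecam1, the adhesion molecule CD31, had a 100 kb loop to Milr1 with 802 contacts in diestrus (747 to 859) and 817 in estrus (762 to 875), at strengths of 8.92 and 8.79. Both genes were assigned to this loop by the 5 kb margin alone, as neither lay inside an anchor, and the loop encloses Pecam1. Eng, a TGF-beta co-receptor gene, had a 50 kb loop to the adenylate kinase gene Ak1 with 829 contacts in diestrus (774 to 887) and 765 in estrus (712 to 821), at strengths of 5.14 and 5.30. The Eng loop left from the far end of the gene, where an end of Fpgs also lay. These 2 loops held the most contacts of all member loops, and their log2 ratios of -0.04 and 0.03 had intervals from -0.18 to 0.11 and from -0.12 to 0.17.

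Cdh5, which encodes VE-cadherin of endothelial junctions, had 5 diestrus loops and 3 estrus loops. Its own ends were joined by a 50 kb loop with 221 contacts in diestrus (193 to 252) and 171 in estrus (146 to 199), at strengths of 2.67 and 2.19 and a log2 ratio of -0.30 (-0.60 to -0.01). Both of these anchors also looped to the end of Bean1 (in diestrus also that of Tk2), with 196 and 160 contacts from the lower-numbered end of Cdh5 and 305 and 306 from the other. The loops of diestrus alone, to Cmtm3 and Cmtm4 over 200 kb and to Dync1li2 and Terb1 over 300 kb, held 46 and 43 contacts. With q-values held to a 10 times stricter limit, Cdh5 had 3 loops in either list.

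The other surface genes had a loop in a single list at most. Emcn, the endothelial sialomucin endomucin, had 1 in diestrus (190 kb, 86 contacts). Robo4, the endothelial roundabout receptor, had 1 in estrus, of 530 kb, with 62 contacts at a strength of 8.05. Robo4 shows the limit of the gene rule, as the diestrus list held a loop 30 kb away, chr9:37430001-37440000 to chr9:37930001-37940000, with 93 contacts at a strength of 12.3 that did not reach the gene.

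The 7 transcription factor genes had 8 loops in each list. Erg, an ETS factor that keeps endothelial identity, had 2 in diestrus and 3 in estrus. From the far end of Erg, a loop of 610 kb held 110 contacts in diestrus (90.4 to 133) and 120 in estrus (99.5 to 143), at strengths of 7.16 and 8.17. A loop of 220 kb held 74 contacts in diestrus (58.1 to 92.9) and 96 in estrus (77.8 to 117), at strengths of 2.66 and 3.49. Its log2 ratio of 0.37 had an interval from -0.08 to 0.83, which includes 0.

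Apart from Sox7, the other factors had loops that were listed once or changed within counting error. The ETS genes Fli1 (80 kb, 248 contacts) and Ets1 (170 kb, 198 contacts) had 1 loop each in diestrus and 0 in estrus, at strengths of 1.91 and 2.14. Tal1, a blood and endothelial factor, looped to Foxd2 in both lists with 74 and 50 contacts, and to Dmbx1 in diestrus over 880 kb with 32. Sox18 had a shared loop of 280 kb with 84 and 74 contacts, and an estrus loop of 150 kb to Dnajc5 and Tpd52l2 with 64. Sox7 had a loop of 100 kb with 171 and 222 contacts, at strengths of 2.17 and 2.70 and a log2 ratio of 0.30 (0.00 to 0.60). Prox1, the lymphatic factor, had 1 loop in estrus, of 620 kb, with 34 contacts.

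In the HIF pathway, Hif1a, the oxygen-regulated subunit gene, had 2 diestrus loops and 1 estrus loop, and its shared loop of 110 kb held 235 and 276 contacts at strengths of 2.12 and 2.40. Arnt, the constant partner subunit, had a loop to Setdb1 in estrus alone by the gene rule, with 205 contacts at a strength of 1.93. The nearest diestrus loop, 20 kb away with 223 contacts at a strength of 3.76, did not reach the gene. It lay within the matching distance but was not paired with the Arnt loop. Hif3a had 2 loops in each list, to Pnmal2 over 130 kb with 354 and 309 contacts at strengths of 6.85 and 7.02, and to Ccdc8 and Ppp5c over 60 kb with 410 and 356 contacts at strengths of 4.86 and 4.62. The Hif3a loops thus differed by less than their counting intervals, with log2 ratios of 0.02 (-0.21 to 0.24) and -0.09 (-0.30 to 0.12).

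Of the genes that degrade HIF, Vhl had a paired loop with a higher listed strength in estrus. The loop left from the far end of Vhl, not its start, and an end of Irak2 lay at the same anchor. It spanned 60 kb in diestrus, to ends of Irak2 and Tatdn2, and 50 kb in estrus, into the body of Irak2. It is thus as much a loop of Irak2 as of Vhl. It held 337 contacts in diestrus (302 to 375) and 360 in estrus (324 to 399), at strengths of 3.15 and 3.93 and a log2 ratio of 0.30 (0.08 to 0.52). This ratio compares neighbouring far bins, so a difference between the stages cannot be told apart from the shift in position. Egln1, the main HIF prolyl hydroxylase gene, looped over 50 kb to Gnpat, Exoc8 and Sprtn with 295 and 283 contacts, at strengths of 2.55 and 2.42.

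Egln3 had 4 diestrus and 3 estrus loops, all from chr12:54200001-54210000 at its start. The loops of 150 and 280 kb upstream were shared. The first held 119 contacts in diestrus and 131 in estrus, and the second 145 (122 to 171) and 185 (159 to 214), at strengths of 2.80 and 3.27 for the second. Diestrus alone had loops of 100 kb downstream with 112 contacts and of 340 kb upstream with 79. Estrus alone had a loop of 110 kb upstream with 266 contacts at a strength of 2.84, the most contacts of any single-list loop at Egln3.

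Of the hypoxia targets, Adm and Ndrg1 had loops. Adm encodes adrenomedullin, a vasodilating peptide of the uterus and its vessels. At Adm (chr7:110627657-110629820) 5 loops were listed for diestrus and 4 for estrus. The 350 kb loop to Swap70 held 321 contacts in diestrus (287 to 358) and 255 in estrus (225 to 288), at strengths of 7.66 and 6.73. The 80 kb loop into the body of Sbf2 held 527 contacts in diestrus (483 to 574) and 481 in estrus (439 to 526), at strengths of 3.81 and 3.75. All 4 shared Adm loops had log2 ratios below 0, from -0.28 to -0.02, and the interval of each included 0.

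Ndrg1, a stress response gene, had 1 diestrus loop and 3 estrus loops. The shared loop, of 130 kb to the sialyltransferase gene St3gal1, held 418 contacts in diestrus (379 to 460) and 558 in estrus (513 to 606), at strengths of 3.29 and 4.02 and a log2 ratio of 0.27 (0.09 to 0.46). The estrus list alone held a loop of 50 kb to Ccn4 with 216 contacts and one of 70 kb with 270, at strengths of 2.14 and 2.15. Ndrg1 thus had both more loops and a stronger shared loop in estrus, the latter by less than 1.5-fold.

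Across all members, 62 of the 85 diestrus loops (72.9%, Clopper-Pearson interval 62.2 to 82.0) were found in the estrus list, with both anchors within 10 kb. In the other direction 63 of the 78 estrus loops (80.8%, 70.3 to 88.8) were found in the diestrus list. Over all loops 74.4% and 80.8% were found, so 25.6% and 19.2% were not, and over loops at protein-coding genes 78.0% and 82.1% were found. The members' loops were thus shared about as often as other loops. With the shortened diestrus list the members' shares were 77.0% and 74.4%, the opposite order.

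As over all loops, those found in both lists were the stronger ones among members. Their median strength was 3.31 in diestrus and 3.32 in estrus, against 2.28 and 2.49 for loops not found in the other list. Over all loops the medians were 3.68 and 3.74 for found loops and 2.56 and 2.57 for the others. Of the 23 diestrus loops without a match, at 15 genes, 20 had a strength below 3, and of the 15 estrus loops without a match, at 11 genes, 12 did. The nearest loop of the other list lay a median of 90 kb away from the former and 70 kb from the latter. Over all member loops the median strength was 2.80 and 3.10, against 3.28 and 3.43 over all loops and 3.26 and 3.35 over loops at protein-coding genes. The order between stages turned in the shortened diestrus list, which lacks the weakest diestrus loops by construction, with median strengths of 3.20 and 3.10.

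**Figure D4:**
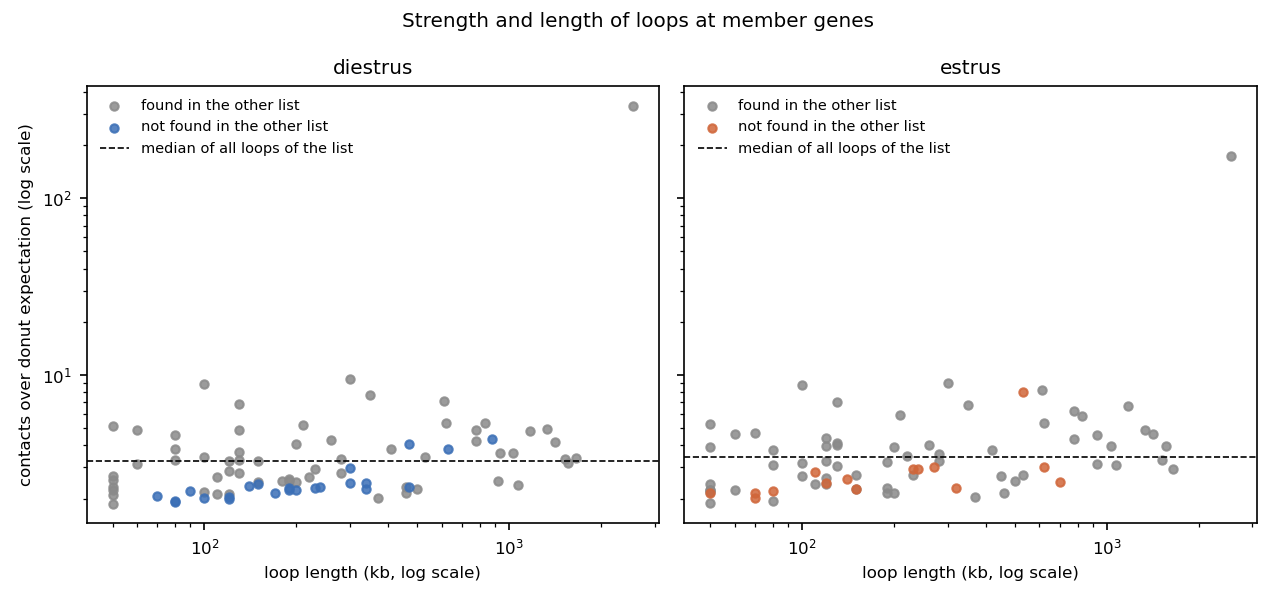
Strength (observed over donut-expected contacts, vertical log axis) against loop length in kb (horizontal log axis) for the member loops of each library, 1 point per loop. Coloured points, not found in the other list, lie mostly below the dashed median of all loops (3.28 in diestrus, 3.43 in estrus), and the single point near 2550 kb is the Flt4 loop.

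The 62 loops paired between the lists had, as a group, nearly the same strength in both stages. Pairing needs a call in both lists, so loops called in a single list have no ratio. The ratios were also centred on the median over all pairs. Their median log2 ratio was 0.02, and 32 were above 0 and 30 below. No pair was over 1.5-fold stronger in estrus, where the background was 1.64% of all 19399 pairs, and 1, the Flt4 loop of 2550 kb, was over 1.5-fold stronger in diestrus, where it was 1.56%. The interval excluded 0 in 9 pairs. It lay above 0 in 6 (background 6.36%), at Vegfa, Nrp1, Nrp2, Sox7, Vhl and Ndrg1, of which the Vegfa and Vhl pairs compare neighbouring bins. It lay below 0 in 3 (background 6.98%), at Flt4, Nrp1 and Cdh5. By role the median log2 ratio ran from -0.08 in VEGF ligands to 0.18 in transcription factors, and differences between roles were not tested.

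**Figure D5:**
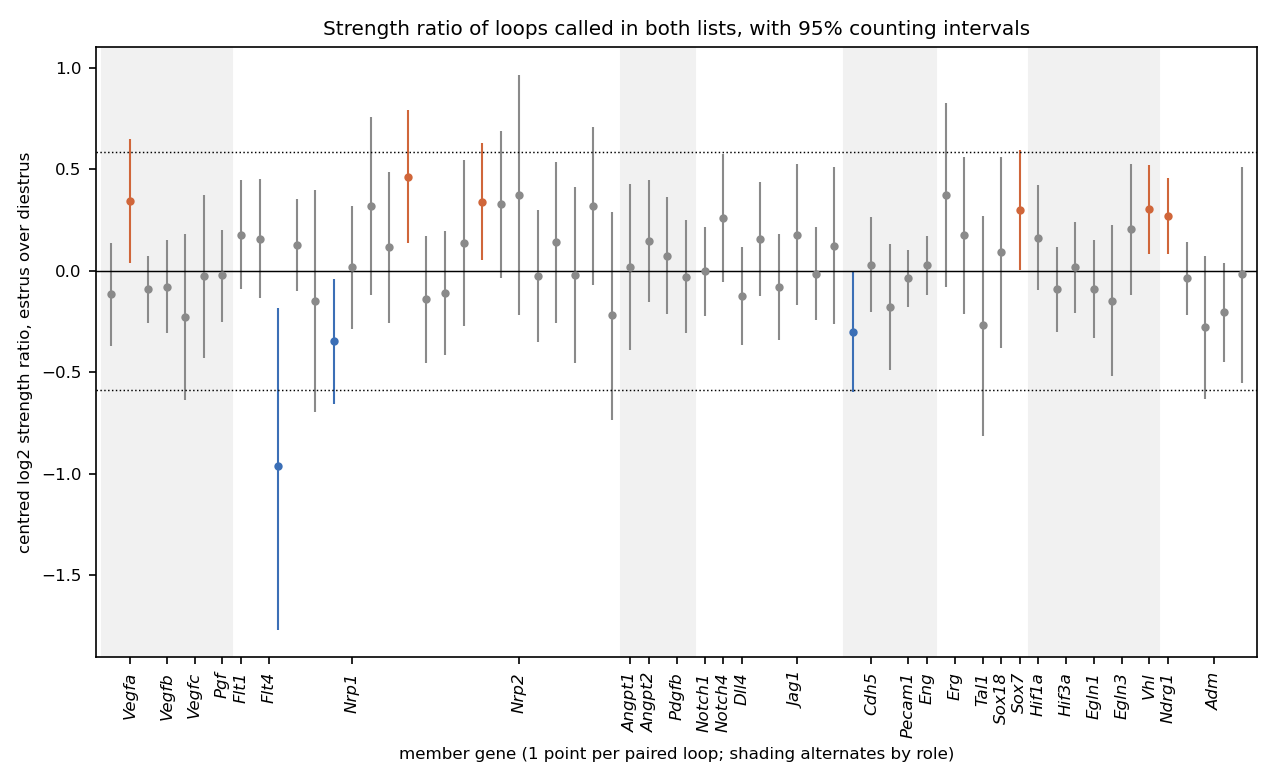
Centred log2 strength ratio of estrus to diestrus (vertical axis), for the 62 paired loops grouped by gene (horizontal axis, shading alternates by role), with 95% counting intervals. Orange intervals lie above 0 (6 loops), blue below 0 (3 loops) and grey include 0. The dotted lines mark 1.5-fold, which only the Flt4 point at -0.96 passes.

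The neuropilins and Jag1 also set the geometry of the group. Member loops had a median length of 200 kb in diestrus and 195 kb in estrus, against 240 and 230 kb over all loops. Without these 3 genes the medians were 130 and 120 kb. Loops over 500 kb made up 22.4% and 25.6% of member loops but 5.66% and 9.80% without the 3 genes. Over all loops they made up 23.6% and 23.0%.

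Among loops with a start site in the anchor or within 5 kb of it, the members' loops pointed upstream in 42 of 61 in diestrus (68.9%, 55.7 to 80.1) and 38 of 54 in estrus (70.4%, 56.4 to 82.0), against 48.4% and 48.8% at protein-coding genes. Loops of 1 gene share their anchor and are not independent, so these intervals are too narrow. Without Nrp1, Nrp2 and Jag1 the counts were 18 of 31 (58.1%, 39.1 to 75.5) and 17 of 28 (60.7%, 40.6 to 78.5), intervals that include the background.

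The far anchor met the end of another or the same protein-coding gene in 20 of the 85 diestrus loops (23.5%) and 19 of the 78 estrus loops (24.4%). Among all loops at protein-coding genes, 29.8% and 30.1% had a gene end at both anchors. That share counts each loop once and is not a like background. A share counted from each gene's anchor, as for the members, would be higher and was not computed. Nrp1, Nrp2 and Jag1 had 1 loop with a far gene end in either list, that of Nrp2 to Pard3b, out of 32 and 27. The other members had 19 of 53 (35.8%) and 18 of 51 (35.3%). The far anchor lay inside the body of a protein-coding gene in 42 diestrus and 43 estrus loops. By role, loops with a far gene end numbered 7 in diestrus and 5 in estrus at endothelial surface genes. They numbered 4 in each list at VEGF ligand genes and in the HIF pathway. Transcription factors had 2 in each list, and hypoxia targets 2 in diestrus and 3 in estrus. The counts include the loop that joins the ends of Cdh5. Gene partners were mostly absent at Nrp1, Nrp2 and Jag1.

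Other genes of both pathways, taken as lists of vascular and hypoxia genes, also had similar loop numbers in both stages. The 42 vascular genes had 71 diestrus and 73 estrus loops, with 7 genes higher in diestrus, 9 in estrus, 12 equal and 14 without a loop. The 38 hypoxia genes had 85 loops in either list, with 9, 11, 13 and 5 genes. Of these loops Cited2 alone held 24 in diestrus and 25 in estrus. Among all protein-coding genes with a loop in either list, 31.5% were higher in diestrus, 25.6% in estrus and 42.9% equal. Among genes with at least 3 loops in a list, differences of 2 loops were seen at Pdgfc, a PDGF ligand (8 and 6), Mxi1, a MYC antagonist (5 and 3), Vldlr, a lipoprotein receptor (5 and 3), and Car12, a carbonic anhydrase (3 and 1). They were also seen at Vegfd, the other lymphatic VEGF ligand (1 and 3), and Hk1, a hexokinase (2 and 4). Of all protein-coding genes with a loop, 7.11% had at least 2 more in diestrus and 4.29% at least 2 more in estrus. Kdr, the main VEGF-A receptor, had 1 loop in diestrus and 0 in estrus, and the HIF-2 subunit gene Epas1 had 2 in each.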

How the data were processed

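The submitters' processing notes name Juicer and mm10. The aligner, the versions and the caller's settings were not given in the sources used here. Each deposited list gives 1 loop per line with columns that HiCCUPS, Juicer's loop caller, writes, per the file headers. Observed contacts are raw counts made by the authors, and the contacts expected from 4 local backgrounds are a signal from the authors' caller, per the file headers. The deposited q-values are the caller's, at most 0.0955 in diestrus and 0.0991 in estrus. Anchor positions are coordinates, not measurements (other, per the file headers), given 1-based. The loops hold 4533525 contacts in diestrus and 4153485 in estrus, which sums called loops only, so the sequencing depth is not used here.

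Loops were matched to either end of RefSeq genes (GRCm38.p6), within 5 kb. Sharing needed both anchors within 10 kb between nearest edges. Strength was contacts over the donut expectation. Mutually nearest shared loops were paired and log2 strength ratios centred on the median over 19399 pairs, with calls over 1.5-fold. Intervals (95%) of contacts were exact Poisson, those of ratios exact conditional, taking expectations as exact, and those of shares Clopper-Pearson, treating loops as independent. Contacts counted without molecular identifiers can be copies of 1 molecule. Promoter strands, known for 32 of the 45 members, came from RefSeq's promoter table. Angpt1, Angpt2, Angptl4, Pdgfb, Pdgfrb, Cdh5, Pecam1, Fli1, Ets1, Sox18, Sox7, Lyve1 and Ndrg1 have no entry there.

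Members and lists were chosen with earlier results of these data known. Every member is named. Loops are detailed for members with at least 4 loops or a difference of at least 2, the 5 strongest loops and the 5 largest ratios with at least 20 contacts in both lists. Other pathway genes are named from a difference of at least 2 with at least 3 loops, up to 8. Kdr, Epas1 and Cited2 were added after their values were seen. The 500 kb limit and the sets without Nrp1, Nrp2 and Jag1 were also chosen after values were seen. Python 3.11.15 with pandas 2.3.3, numpy 2.4.6, scipy 1.17.1 and matplotlib 3.10.9 was used, and the scripts were tested on simulated data. Alternatives tried were the gene rule, the matching distance, stricter q-values, a shortened list and other measures of strength.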

Additional observations from a re-analysis of the deposited data

How the results depend on the processing

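With the gene end inside an anchor the members had 61 diestrus and 57 estrus loops, within 10 kb 105 and 97, and the other pathway genes 103 and 102 with the end inside an anchor. Nrp1 had 15 and 13 loops within 10 kb. When an anchor on any part of the gene was counted the Nrp2 difference, estrus minus diestrus, was -1. With start-site ends alone 5 members had more loops in estrus. At the same position 61.2% of diestrus and 66.7% of estrus member loops were found, against 61.9% and 67.3% of all loops. Against the largest of the 4 backgrounds the median strengths were 2.17 and 2.27 (2.42 and 2.49 over all loops). With observed contacts alone the median log2 ratio was -0.061. In the shortened diestrus list Egln3 had 3 loops against 3 and Adm 4 against 4. Under stricter q-values Vegfa had 3 and 4. The median log2 ratio was near 0 throughout and also fell below it, at -0.0044, against the largest background. In the shortened diestrus list the order of the stages turned for the members' loops (74 and 78), for genes with more loops (8 and 12), for the share found (77.0% and 74.4%) and for the median strength (3.20 and 3.10), although each value stayed within the limits used (1.5 times for counts).

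No paired analysis was possible because each stage has 1 library. For the same reason no replicate was left out. Loops with few contacts have the widest counting intervals for their size, such as 14.6 to 34.5 for the Flt4 loop of 23 contacts in estrus.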
